A study of Mus musculus with 12 samples.

Results

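The odorant receptor genes Olfr90 to Olfr137 are the receptors that lie beside and among the genes of the major histocompatibility complex (MHC) on mouse chromosome 17. They were chosen by symbol, as plain Olfr symbols in that range of numbers with no pseudogene suffix, which gave 44 genes of the 46297 gene rows in the deposited table. Of the 48 symbols this range allows, Olfr100 has no row, and Olfr104-ps, Olfr105-ps and Olfr106-ps are present only with the suffix for pseudogenes. The study measured RNA of the olfactory mucosa, the tissue of the nose that holds the olfactory sensory neurons, in 12 male mice at postnatal day 30. In 6 mice (DEL) enhancer A was deleted, a stretch of 912 bp at chr7:102509701-102510612 within the class I receptor cluster, and 6 age-matched mice were wildtype (WT). The labels give every animal the strain entry 129S6;C57BL/6J and do not say whether the deletion was on both copies of chromosome 7. Each animal gave 1 library of stranded, ribodepleted total RNA.

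Mammalian odorant receptors are G-protein-coupled receptors of 2 classes. Class I genes sit in a single cluster on mouse chromosome 7, and class II genes, to which all 44 members belong, are spread over many clusters on most chromosomes. Each mature olfactory neuron transcribes 1 receptor allele out of this whole repertoire, so in bulk RNA the level of a receptor reflects both how many neurons chose it and how much of its RNA each of them holds. Fewer neurons of a type and less RNA per neuron cannot be told apart here. The receptor cluster linked to the MHC is conserved between mouse and human, and has long been of interest because MHC genotype affects body odour and mate choice in mice. The comparison asks whether receptors on another chromosome differ when an enhancer of the class I cluster is missing.

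Libraries held 13011763 to 23039733 recovered reads, of which 3161 to 5976 fell on the 44 members. Values are the authors' normalized counts, obtained by dividing each gene's reads by a size factor per library. The annotated gene Gm10800 took more than 1% of reads in 4 libraries, 2 of each genotype (DEL3, DEL6, WT2 and WT3). Markers fitted the labelled tissue: the summed level of 6 markers of mature olfactory neurons was 148240 to 170545 normalized counts in DEL and 136917 to 168371 in WT. Of 28 tested markers of 9 cell types, limma, edgeR and DESeq2 called 0, with 4 at an unadjusted p under 0.05 by limma. Cngb1, a marker of mature neurons, is among the 4. Over all genes tested, limma called 0.372%, and 6.68% had an unadjusted p under 0.05. Whether the cell composition differed between genotypes was not tested. Among the lists, the markers of Bowman gland varied most, summing to 3281 to 26598 in DEL and 3160 to 10551 in WT. The class I receptors followed the labels. Olfr544, beside the deleted enhancer, averaged 9.66 ± 4.03 normalized counts in DEL and 126 ± 25.6 in WT (SD, n = 6 each; limma, adjusted p = 6.31e-07). Of 116 tested class I receptors, 65 passed the threshold of an adjusted p under 5% (56%), 63 of them lower in DEL (54.3%) and 2 higher (1.72%).

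All 44 members are annotated as protein-coding genes on chromosome 17, between positions 37083871 and 38336643 (GRCm38, GENCODE M21), a span of 1252.773 kb. They are split evenly, 22 on the plus and 22 on the minus strand, in 12 runs of neighbours with the same orientation, the longest of 11 genes. Their coding sequences are 915 to 1158 nucleotides long. Over the 946 pairs of members the identity of the coding nucleotides ranged from 45.9% to 98.1%, with a median of 55.6%. The closest pairs are Olfr110 and Olfr111 at 98.1%, Olfr117 and Olfr130 at 97.2%, and Olfr101 and Olfr102 at 96.6%. In 29 members more than 5% of the 50-base stretches of their exons also occur in another gene, on either strand. The values of these members can include reads of that gene or lack reads that matched both. That gene is not always a receptor. Olfr115 and Olfr116 also overlap on the same strand, and Olfr92 and Olfr98 overlap a gene on the opposite strand.

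Sequences upstream of 4 members are shown because Olfr122 and Olfr119 are among the 3 members with the smallest p-values and Olfr98 and Olfr108 were too low to test. Olfr109, the remaining one of those 3, is left out because its RefSeq start lies 7292 bases inside its GENCODE gene. They are taken from RefSeq promoter windows of build GRCm38.p6, which hold the 250 bases before a start, cut so that they end before the start of the gene in GENCODE M21 as well. Capitals mark matches to CCCNNGGG, the core bound by Ebf factors, and to TAATTA or TAATGA, cores bound by homeodomain factors such as Lhx2, both searched on either strand. Olfr122 is on the plus strand (chr17:37768392-37768606), as is Olfr119 (chr17:37696435-37696563). Olfr98 is on the minus strand (chr17:37263750-37263912) and Olfr108 on the plus strand (chr17:37445230-37445479).
Olfr122: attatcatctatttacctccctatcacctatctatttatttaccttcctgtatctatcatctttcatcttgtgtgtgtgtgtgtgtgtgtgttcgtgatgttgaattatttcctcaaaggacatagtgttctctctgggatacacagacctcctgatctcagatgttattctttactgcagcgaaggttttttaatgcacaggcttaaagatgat
Olfr119: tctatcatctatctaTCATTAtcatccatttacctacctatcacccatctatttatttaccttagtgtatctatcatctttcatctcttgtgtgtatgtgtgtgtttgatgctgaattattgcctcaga
Olfr98: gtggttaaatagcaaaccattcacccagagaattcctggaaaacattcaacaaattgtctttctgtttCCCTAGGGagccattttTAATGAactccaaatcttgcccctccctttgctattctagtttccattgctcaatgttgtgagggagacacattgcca
Olfr108: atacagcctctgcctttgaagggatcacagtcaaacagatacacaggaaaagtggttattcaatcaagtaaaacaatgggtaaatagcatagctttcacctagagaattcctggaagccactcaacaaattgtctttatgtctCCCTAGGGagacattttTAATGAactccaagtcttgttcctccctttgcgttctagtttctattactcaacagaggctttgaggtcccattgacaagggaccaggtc
The stretches of Olfr119 and Olfr122 are related, with 99 identical letters in a local alignment of 116 columns (85.3%). Olfr119 holds TAATGA on its other strand, read as TCATTA, and the stretch of Olfr122 as cut holds no match. Before the cut, the window of Olfr122 held 1 match to TAATGA and that of Olfr119 held 2. The cut thus took a match from each, and the printed difference depends on it. Olfr98 and Olfr108 are related too, with 120 identical letters in 138 columns (87.0%), and both carry CCCTAGGG followed after 9 bases by TAATGA. The window of their relative Olfr99 holds the same 2 matches at the same spacing, but inside its GENCODE gene and not at its start. Olfr98 and Olfr108 are annotated with 1 exon block each, of 1039 and 1038 bp. Whether their transcripts start there was not tested.

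RefSeq windows were found for 35 members. CCCNNGGG was in 3 of the 35 windows (8.57%), against 2.49% of 804 windows of other class II receptors and 11.8% of all 32851 promoters. TAATTA was in 4 (11.4%), against 18.8% of other class II windows and 4.84% of all promoters. TAATGA was in 8 (22.9%), against 25.6% and 8.59%. Only 4 of the 35 windows, those of Olfr98, Olfr108, Olfr110 and Olfr122, have a RefSeq start within 100 bp of the start in GENCODE. The RefSeq start of Olfr119, printed above, lies 121 bases inside its GENCODE gene. In Olfr99, which holds the remaining CCCNNGGG match, the RefSeq start lies 3042 bases inside the GENCODE gene, so many of these windows may not lie at the start that the mucosa uses.

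The members were well expressed beside the other class II receptors, but those include rows with the pseudogene suffix, which the members leave out. The sets are therefore not alike, and a comparison without such rows was not made. Normalized counts per kb of exon, averaged over the 12 libraries, had a median of 26.4 over the 44 members and 19.1 over the other class II receptors. A mean of at least 10 normalized counts, needed for a test, was reached by 42 of 44 members (95.5%) and by 910 of 1193 other class II receptors (76.3%). By level per kb, 3 members lay under 10, 31 between 10 and 50, and 10 at or above 50.

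Olfr124 was the member with the highest level. It reached 157 normalized counts per kb, which placed it at rank 14 of 1223 class II receptors with an annotated length, and it gave 16.3% of the signal of all members. In DEL it had 667 to 861 normalized counts with a median of 814, and in WT 472 to 810 with a median of 701. The groups overlapped, and the lowest value of all was in WT6. The log2 fold change of DEL over WT, on the scale log2(value + 1), was 0.20 ± 0.11 (SE; limma, adjusted p = 0.758). Without WT6 it was 0.098, and rescaled to the class II signal of each library it was 0.10. Its coding sequence has no close relative in the cluster, its nearest being Olfr135 at 63.4% identity, and 0.361% of its 50-base stretches are shared.

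Of the other members with high values, Olfr131 followed at 111 normalized counts per kb, with 214 ± 26.5 normalized counts in DEL and 184 ± 24.1 in WT (adjusted p = 0.744 by limma). Olfr136, the last member on the chromosome, had 65.6 per kb, with 179 ± 16.8 normalized counts in DEL and 169 ± 20.6 in WT (adjusted p = 0.854 by limma). Olfr117 had 198 ± 44.0 normalized counts in DEL and 188 ± 44.6 in WT (adjusted p = 0.917 by limma). Groups overlapped in all 3. Olfr117 shares most of its coding sequence with Olfr130, so its value is uncertain.

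At the low end, both members without a test stayed near the limit of detection. Olfr98 had 2.00 to 11.1 normalized counts in DEL, with a median of 7.53, and 1.80 to 8.67 in WT, with a median of 3.66. Its nearest relative is Olfr97, at 94.5% identity. On either strand, 60.7% of its 50-base stretches occur in another gene. The gene that shares the most is Gm20429, which overlaps Olfr98 on the opposite strand. Olfr108 had 0 to 1.80 normalized counts in DEL, with a median of 0.962, and 0 to 8.08 in WT, with a median of 1.53. Ranges of Olfr98 and of Olfr108 overlapped between genotypes. Olfr118 was the lowest member with a test, at 5.71 normalized counts per kb.

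**Figure D1:**
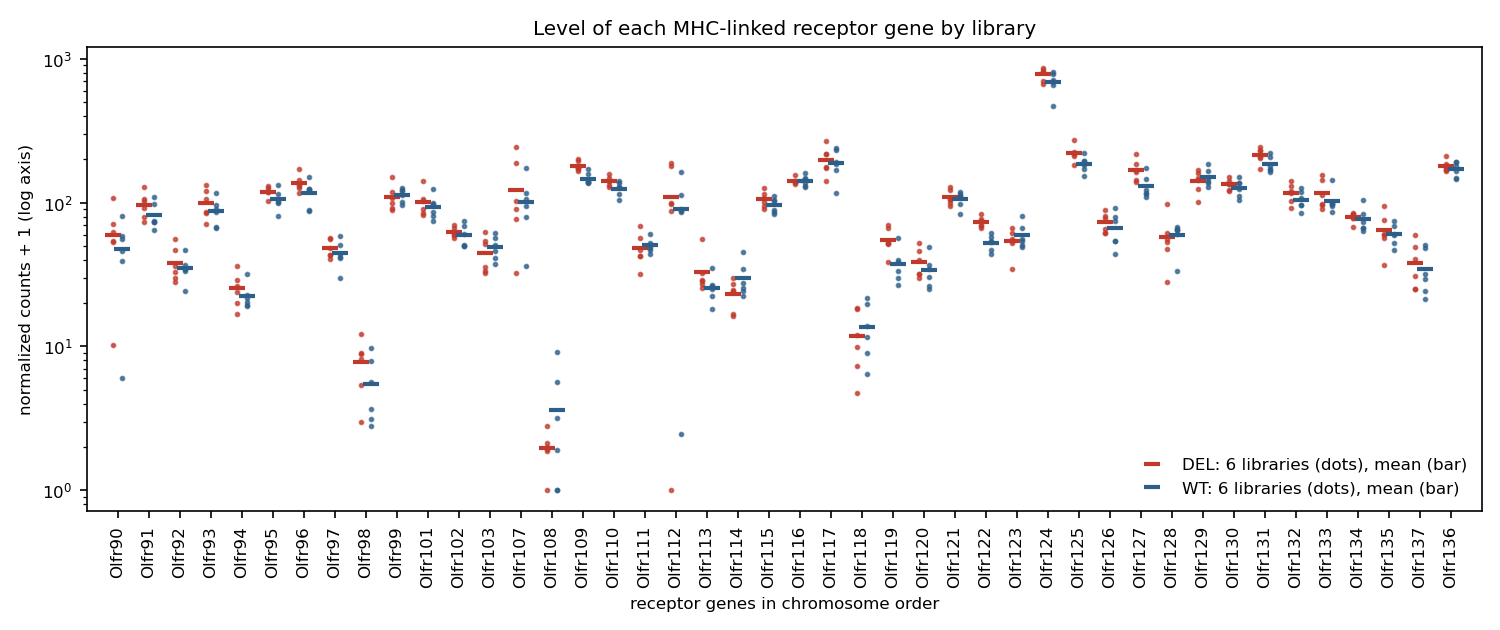
Normalized counts plus 1 (log axis) of each of the 44 members in chromosome order, red dots and bars for the 6 DEL libraries and their mean, blue for the 6 WT libraries and theirs. Olfr124 lies above all other members, Olfr98 and Olfr108 lie lowest, and Olfr112 has 1 library per genotype near 0.

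No member passed the threshold of an adjusted p under 5% with limma. Over all genes tested 72 of 19373 passed, 0.372%, and over the other class II receptors 0.659%. Run on the recovered reads, edgeR called 0 members against 0.346% of all genes, and DESeq2 called 0 members against 0.268% of all genes. An unadjusted p under 0.05 was found for 5 members by limma (11.9%), by edgeR (11.9%) and by DESeq2 (11.4% of 44). Over all genes this share was 6.68% with limma, 6.67% with edgeR and 5.32% with DESeq2. With limma it was 13.8% over the other class II receptors, so the share among members lay near that of their class. All 5 had higher values in DEL, which was so for 10.7% of other class II receptors and 3.49% of all genes. In the authors' deposited table the smallest adjusted p of a member was 0.216 and 0 members fell under 0.05, against 91 genes in all.

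Olfr122 had the smallest p. It had 65.8 to 81.7 normalized counts in DEL, with a median of 71.2, and 43.1 to 60.2 in WT, with a median of 52.3. Every DEL library lay above every WT library, and it was the only tested member without overlap (2.38% of members, against 0.588% of all genes and 0.769% of other class II receptors). Means were 72.3 ± 6.20 in DEL and 51.7 ± 6.48 in WT (SD, n = 6 each), a ratio of 1.40. The log2 fold change was 0.48 ± 0.12 with a 95% interval of 0.23 to 0.74 (limma, adjusted p = 0.216). Its nearest relative is Olfr120, at 91.5% coding identity, and 10.9% of its 50-base stretches occur in another gene, so part of its signal is uncertain.

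Olfr109 had 164 to 199 normalized counts in DEL, with a median of 173, and 135 to 169 in WT, with a median of 138. A single WT library, WT3 at 169, reached into the DEL range. The log2 fold change was 0.29 ± 0.09 (SE; limma, adjusted p = 0.457), and 0.19 when rescaled to class II signal. This receptor shares few of its 50-base stretches with other genes, 0.449%, and its nearest relative in the cluster is Olfr101 at 68.4%. Olfr119 had 37.9 to 68.5 normalized counts in DEL, with a median of 51.3, and 25.6 to 56.0 in WT, with a median of 35.0. Only WT5, at 56.0, was above the median of DEL, and the log2 fold change was 0.57 ± 0.20 (SE; limma, adjusted p = 0.633). Olfr119 is 95.5% identical to Olfr121, so part of its signal is uncertain.

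The other 2 members with an unadjusted p under 0.05 were Olfr125, among the 6 highest members, and Olfr127, named here after its values were seen. Olfr125 averaged 221 ± 30.1 normalized counts in DEL and 185 ± 24.0 in WT (limma, adjusted p = 0.734). Olfr127 averaged 169 ± 29.3 normalized counts in DEL and 130 ± 25.1 in WT (limma, adjusted p = 0.661). Both overlapped between genotypes. Olfr119, Olfr122, Olfr125 and Olfr127 lie on the plus strand in the middle of the cluster, and Olfr109 lies on the same strand at a lower coordinate. Every member from Olfr118 to Olfr128 is on that strand, as are 22 of all 44 members, so the shared strand says little.

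The members with the smallest p among those lower in DEL were Olfr114, Olfr123 and Olfr129. Olfr114 averaged 22.2 ± 5.57 normalized counts in DEL and 28.9 ± 8.68 in WT, with a log2 fold change of -0.36 ± 0.23 (SE; limma, adjusted p = 0.779). This estimate was -0.12 with the mean of the mature neuron markers in the fit and -0.23 without WT2. Olfr123 averaged 53.1 ± 10.9 normalized counts in DEL and 58.6 ± 12.2 in WT (adjusted p = 0.866 by limma). Olfr129 averaged 140 ± 25.5 normalized counts in DEL and 149 ± 20.9 in WT (adjusted p = 0.876 by limma). All 3 ranges overlapped. Olfr123 lies between Olfr122 and Olfr124, whose means were higher in DEL.

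Across the 42 tested members the log2 fold changes ran from -0.36 (Olfr114) to 0.57 (Olfr119), and 41 were smaller in size than 0.5. The 95% interval lay between -1 and 1 for 38 members and between -0.5 and 0.5 for 22. Its lower bound was above -1 for 40 of 42, whereas the median over the 116 class I receptors was -0.92.

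**Figure D2:**
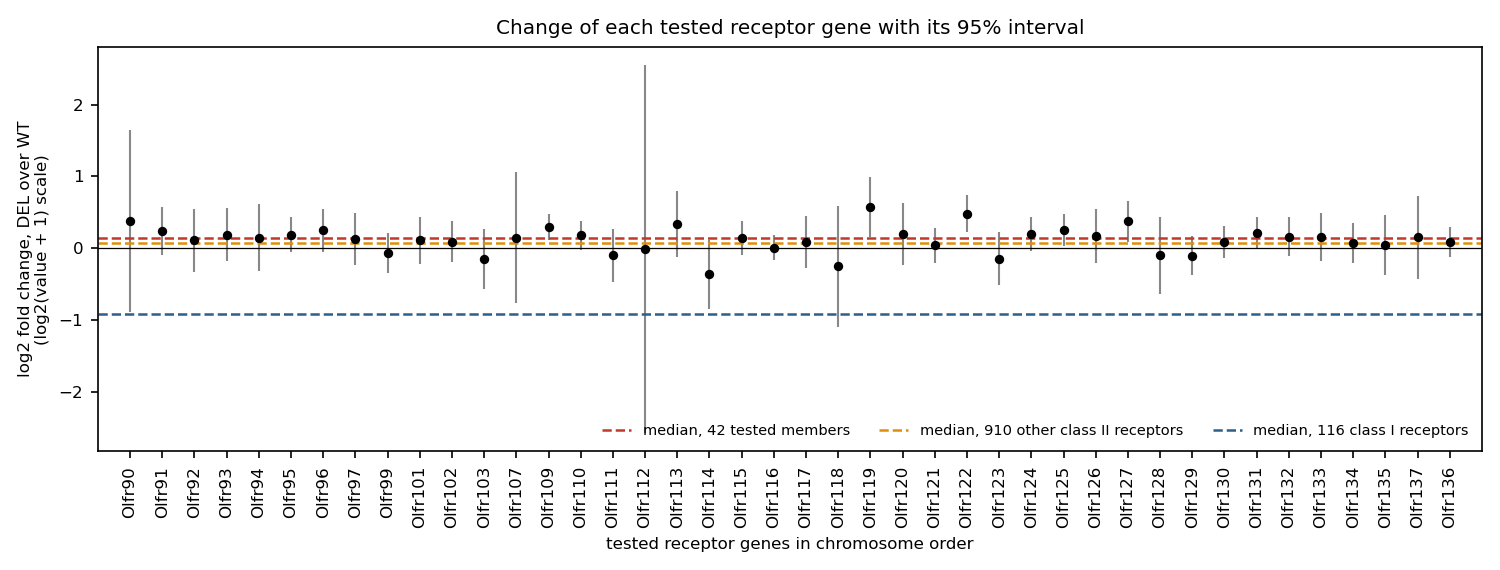
Log2 fold change of DEL over WT (log2(value + 1) scale) for the 42 tested members in chromosome order, points with 95% intervals; dashed lines give the medians of the members (0.15), of 910 other class II receptors (0.07) and of 116 class I receptors (-0.92). The intervals of Olfr112, Olfr90 and Olfr107 are wide.

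Small positive differences prevailed. The estimate was above 0 for 33 of 42 members (78.6%), against 63.1% of the other class II receptors and 52.6% of all genes tested. The median log2 fold change was 0.15 over members, 0.07 over other class II receptors and 0.01 over all genes. The summed value of the 44 members was 4748 ± 356 normalized counts in DEL (4362 to 5252) and 4265 ± 383 in WT (3603 to 4632; SD, n = 6 each), a difference of 11.3%. The highest sums were in DEL2 and DEL4 and the lowest in WT6, DEL1 lay just above the highest WT library, and the other 3 DEL libraries lay within the WT range.

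The signal of all class II receptors differed in the same direction, with 128563 ± 5122 normalized counts in DEL and 120153 ± 9191 in WT, a difference of 7.0%. Ranges were 121997 to 137683 in DEL and 102120 to 125985 in WT. WT6 lay apart at 102120, the next lowest WT library being WT3 at 119104, so part of the difference rests on WT6. As a share of class II signal the members took 3.69 ± 0.169% in DEL and 3.55 ± 0.101% in WT (SD, n = 6 each), with overlapping ranges. Scaled to class II signal, the median over members was 0.046. The mean of 6 markers of mature neurons was 14.24 ± 0.06 in DEL and 14.14 ± 0.12 in WT on the log2 scale, with all 6 estimates above 0 and none called; with this mean in the fit the median over members was 0.10. Omp, the marker of mature olfactory neurons, averaged 63114 ± 5927 normalized counts in DEL and 60400 ± 6696 in WT (limma, adjusted p = 0.894).

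**Figure D3:**
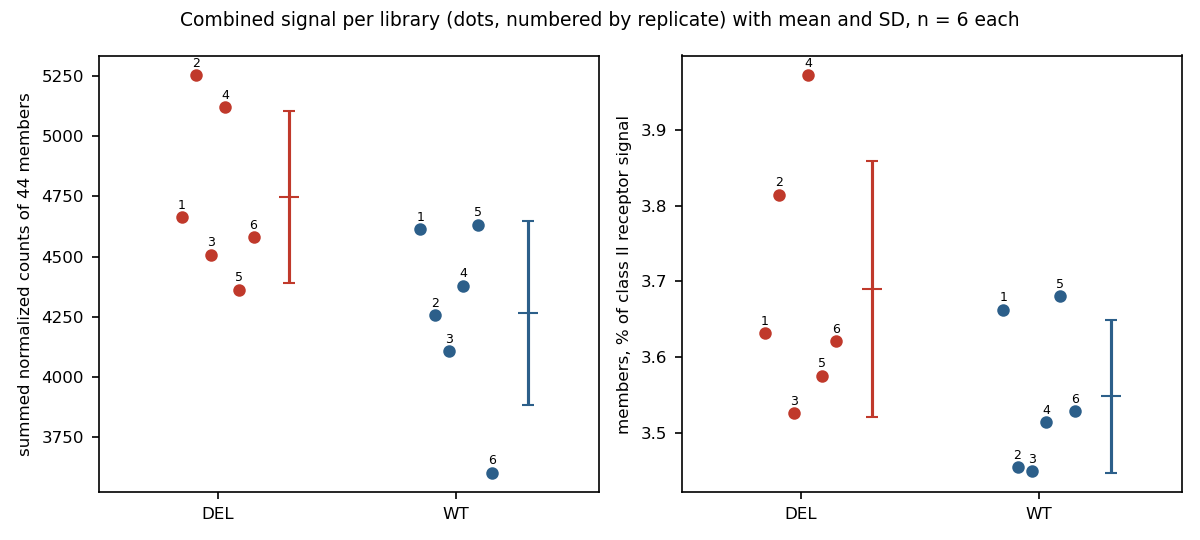
Summed normalized counts of the 44 members (left) and their percent of class II receptor signal (right); each dot is 1 library numbered by replicate, DEL in red left of WT in blue, with mean and SD beside them (n = 6 each; axes do not start at 0). DEL2 and DEL4 are highest in both panels, and the remaining libraries overlap between genotypes in the share.

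Some members varied far more between animals than between genotypes. Olfr112 had 99.2, 178, 97.1, 188, 0 and 85.9 normalized counts in DEL1 to DEL6, and 163, 84.8, 86.4, 112, 88.7 and 1.45 in WT1 to WT6. It was thus at 0 or nearly so in DEL5 and WT6, high in DEL2, DEL4 and WT1, and between 84.8 and 112 in the other 7 libraries. Both genotypes held libraries of each level. The log2 fold change was -0.013 ± 1.2 with a 95% interval of -2.57 to 2.55 (limma, adjusted p = 0.998), so a difference of several-fold in either direction lay within the interval. The nearest relative of Olfr112 is Olfr116, at 89.1% identity, and 4.12% of its 50-base stretches are shared. The gene that shares the most of them is Olfr113.

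Olfr90, the member at the proximal end of the cluster, lies 477.797 kb from Olfr112. It had 61.3, 107, 52.6, 69.5, 9.26 and 52.9 normalized counts in DEL1 to DEL6, and 79.5, 57.9, 38.0, 54.9, 45.4 and 5.06 in WT1 to WT6. Olfr107, at 162.442 kb from Olfr112, had 102, 189, 76.5, 242, 31.5 and 89.8 in DEL1 to DEL6, and 174, 105, 93.3, 78.2, 116 and 35.4 in WT1 to WT6. In both genes DEL5 and WT6 were the 2 lowest libraries and DEL2, DEL4 and WT1 the 3 highest, as in Olfr112. Neither differed between genotypes by limma, with adjusted p = 0.896 for Olfr90 and 0.948 for Olfr107. Over the libraries, the ratio of the highest to the lowest value (each plus 1) was 189 for Olfr112, 17.9 for Olfr90 and 7.49 for Olfr107.

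The 2 lowest libraries of Olfr112 were the lowest in Olfr92 and Olfr117 as well, so 5 of 42 members (11.9%), Olfr112 included, had them lowest, against 1.79% of all genes tested. Class II signal as a whole was lowest in WT6 (102120) and, among DEL libraries, in DEL5 (121997). The share among other class II receptors was not counted, so this excess cannot be called particular to the cluster. In Olfr113, which lies next to Olfr112 in number, these 2 libraries were instead the highest, as in 3.16% of all genes tested and in 1 of 42 members (2.38%). Of the 50-base stretches of Olfr113, 12.3% occur in another gene, and Olfr112 shares the most, so these 2 genes may not be measured independently. The order of libraries in Olfr112 was looked for after its values were seen, and is a description. With both ends required, 12 of 19373 tested genes (0.0619%) had the order of Olfr112 or its reverse, Olfr112 itself included. On chromosome 17 these were 6 of 867 tested genes (0.692%). From the first to the last of these 6, which set the bounds, the chromosome holds 63 tested genes.

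The 6 genes were the 3 members, the receptor rows Olfr104-ps and Olfr138, and H2-T24, a nonclassical MHC class I gene 1555.97 kb from Olfr112. Olfr138, a receptor gene inside the span that the number range leaves out, had the reverse order. It had 130, 31.6, 145, 37.0, 204 and 131 normalized counts in DEL1 to DEL6, and 46.2, 94.3, 145, 162, 153 and 173 in WT1 to WT6. Its lowest libraries were DEL2, DEL4 and WT1, and its highest DEL5 and WT6. Olfr761, also inside the span, was listed at 0 in exactly DEL2, DEL4 and WT1, and had 11.5 to 40.7 normalized counts in the other libraries. The labels give all these animals the same mixed strain entry and no chromosome 17 genotype, and whether the animals differed in genotype there was not tested.

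**Figure D4:**
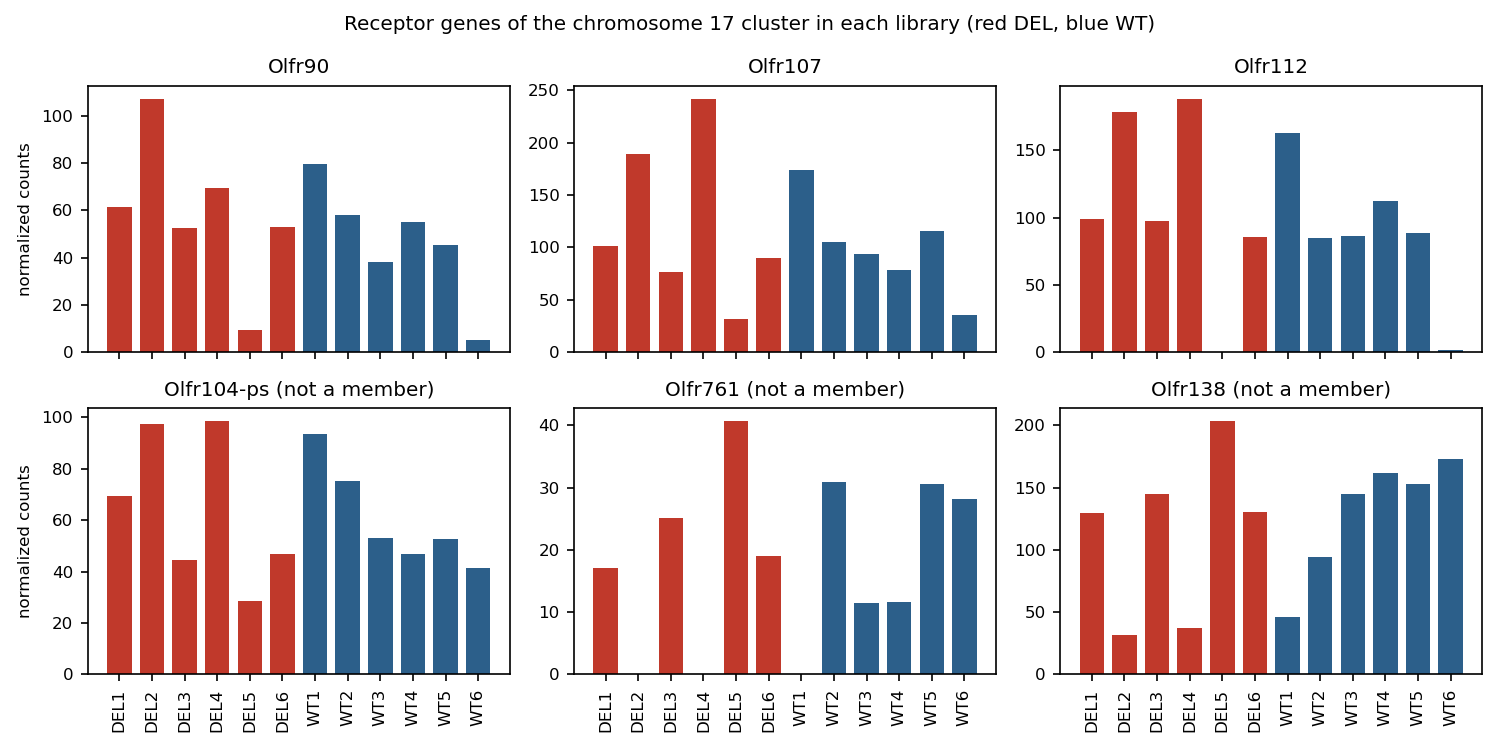
Normalized counts in each library (bars; red DEL1 to DEL6, blue WT1 to WT6) of Olfr90, Olfr107 and Olfr112, and of 3 receptor genes of the same stretch that are not members, Olfr104-ps, Olfr761 and Olfr138. DEL5 and WT6 are lowest in the members and in Olfr104-ps and highest in Olfr138, whereas DEL2, DEL4 and WT1 show the opposite.

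For most members the spread was ordinary. The median SD within a group, on the log2 scale, was 0.29 over the tested members and 0.28 over the other class II receptors. Leaving out DEL5 and WT6, a choice made after seeing the data, gave 0 called members and a median log2 fold change of 0.13.

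Genes that share the neighbourhood of the members did not pass the test either. Of 20 genes other than receptors between the outermost members, 3 were expressed highly enough to test, Ubd, a ubiquitin-like protein, and H2-M2 and H2-M3, nonclassical MHC class I genes; limma, edgeR and DESeq2 called 0 of them, with 0 at an unadjusted p under 0.05 and a smallest adjusted p of 0.931. Their estimates were all 3 below 0, with a median log2 fold change of -0.031. H2-M3, the highest of them, averaged 22.4 ± 3.84 normalized counts in DEL and 24.0 ± 5.61 in WT. Of 14 further receptor rows in the span, 6 were tested, and limma, edgeR and DESeq2 called 0, with 0 at an unadjusted p under 0.05 by limma. Of these 6, 5 estimates were below 0, with a median of -0.081, whereas 33 of 42 members were above 0; the difference between these lists was not tested.

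The machinery that receptors depend on was tested as a list of 22 genes, covering the odour signalling cascade, receptor export and the factors that bind receptor promoters and enhancers. All 22 were tested, and limma, edgeR and DESeq2 called 0, with 1 at an unadjusted p under 0.05 by limma. That gene was Cngb1, a subunit of the olfactory cyclic nucleotide-gated channel, with 5292 ± 301 normalized counts in DEL and 4641 ± 344 in WT (limma, adjusted p = 0.543). Estimates were above 0 for 21 of 22, against 52.6% of all genes tested, with a median log2 fold change of 0.07, against 0.01 over all genes. The list includes the 6 markers of mature neurons, whose mean on the log2 scale was 14.24 in DEL and 14.14 in WT. The shared direction was not tested.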

How the data were processed

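RNA of the olfactory mucosa of 6 DEL and 6 WT mice was analysed from 1 deposited table. Per the file headers and values, the authors gave each library a column of normalized counts in the manner of DESeq2, a signal that is never below 0. Their comparison adds a deposited log2 fold change of WT over DEL, p-values and a test score. GRCm38.p6, STAR 2.6.0 and DESeq2 are named, per the submitters' processing notes; how reads were counted, with which annotation and strandedness, is not given in the sources used here. Reads were recovered from the steps between values (at least 99.989% whole within 0.01).

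Genes with a mean of at least 10 were tested with limma 3.58.1 (trend option) on log2(value + 1), which understates changes of low genes, with Benjamini-Hochberg adjustment at 5% over all genes; the script was tested on simulated data. Alternatives used edgeR 4.0.16 and DESeq2 1.42.0 on recovered reads, other pseudocounts and filters, a block, a covariate, rescaling and left-out libraries. Software was R 4.3.3, Python 3.11.15 and Biopython 1.88. Receptors Olfr543 to Olfr693, with Olfr33, Olfr78 and Olfr64 to Olfr69, counted as class I, and all others as class II. Apart from the members, both classes keep rows with the pseudogene suffix. Coordinates and coding sequences come from GENCODE M21 (99.8% of rows matched) and promoters from RefSeq. Trpc2, a vomeronasal marker, was not analysed here.

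Members named are the 3 with the smallest p in each direction, the 6 with the highest mean and the 3 with the largest ratio between libraries, plus untested members. Members and lists were chosen with earlier results of these data known. Nothing says that animals came from separate litters, so p-values measure the spread between these 12 libraries.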

Additional observations from a re-analysis of the deposited data

Results flagged for a closer look

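In all, 112 groups of 6 libraries were examined. They came from members, tested neighbouring genes and receptor rows in the span, the summed member signal, the member share of class II signal, and Omp. Of these groups, 8 had a library far from the rest of its group, where chance gives about 1 in 20. Among members, DEL5 was the highest DEL library for Olfr113 (54.6 normalized counts) and for Olfr116 (156). WT2 was the highest WT library for Olfr94 (31.0), WT5 for Olfr133 (144), and WT1 the lowest for Olfr128 (32.4). Among neighbours, DEL5 was the highest DEL library for Ubd (37.0), DEL6 the lowest for H2-M3 (14.97), and WT1 the highest WT library for Olfr106-ps (84.2).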

How the results depend on the processing

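Members called stayed at 0 under all 23 alternatives, and the smallest adjusted p of a named member was 0.149, for Olfr122 without WT5 (limma). By limma, the adjusted p of Olfr122 was 0.409 when rescaled to class II signal and 0.741 with the neuron covariate. Without the 4 libraries rich in Gm10800 it was 0.9998 by limma. Its log2 fold change ranged from 0.38 (rescaled) to 0.53 (without WT5). The count over all genes was 40 with a mean of at least 50, where fewer genes are tested, and 61 to 79 when 1 library was left out. The median over members was 0.046 when rescaled to class II signal, and 0.10 (without DEL4) to 0.18 (without DEL5) when 1 library was left out. The summed difference was 4.00% when rescaled and 7.96% to 13.3% without 1 library, and the difference in share 0.09 to 0.17 percentage points.

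Among 14 named members, 8 kept their sign throughout and 6 did not. Olfr112 was 0.14 with a pseudocount of 5, 0.27 with edgeR, 0.27 with DESeq2, 0.24 without DEL5 and WT6 (added after seeing the data), and -0.92 to 1.15 without 1 library. Olfr117 was -0.044 with the neuron covariate, -0.012 when rescaled and -0.042 to 0.18 without 1 library; Olfr136 was -0.021 with the covariate and -0.013 when rescaled. Olfr129 was 0.057 without the 4 libraries rich in Gm10800. Without 1 library Olfr107 ranged from -0.12 to 0.48 and Olfr90 from -0.15 to 0.83. The causes were not tested.

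No pairing by number was seen in the deviations of same-numbered libraries (correlations -0.15 to 0.36, none best with its own number). This check cannot show whether same-numbered animals were related or handled together. The replicate block gave 71 genes in all, 0 members called and a median of 0.15.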
